A study of Mus musculus with 15 samples.

Results

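The p53 and DNA damage response genes *Cdkn1a*, *Mdm2*, *Gdf15*, *Trp53inp1*, *Ccng1*, *Phlda3*, *Bax*, *Cdkn2a*, *Sesn2* and *Zmat3* were followed in fibrotic mouse kidney and lung. They were taken by symbol from the deposited table, where 10 of the 56748 listed genes carried these names, each in 1 row. All 10 passed the filter on low counts in the main fits, *Cdkn2a* in kidney only through its reads in the injured groups. The 15 libraries fell into 5 groups of 3, all from male C57Bl/6 wild-type mice. WTK were kidneys of mice given vehicle in place of folic acid, aged 10 to 12 weeks, and whether they also received antibody or IgG injections is not clear from the sources used here. IgGK and LepK were kidneys of mice of that age given folic acid at 200 mg/kg and then control IgG (IgGK) or the leptin-neutralizing antibody LepAb (LepK) for 21 days, at 10 mg/kg every other day. The study states day 28 as the day of euthanasia for kidney. IgGL and LepL were lungs of mice aged 12 weeks given bleomycin at 1.5 units/kg into the trachea and then control IgG (IgGL) or LepAb (LepL) at 10 mg/kg for 14 days, with euthanasia at day 14. No library of uninjured lung and no injured organ without antibody injections was analysed here, so the effect of bleomycin itself on these genes was not measured. Whether a library is 1 mouse is not stated in the labels, and the p-values measure the spread between these libraries.

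The transcription factor p53 is held at a low level by the ubiquitin ligase Mdm2. When DNA breaks or other stress activates kinases such as Atm and Chek2, p53 is freed and switches on genes that stop the cell cycle, repair DNA or trigger apoptosis. *Cdkn1a* encodes p21, an inhibitor of cyclin-dependent kinases and the best known p53 target. Folic acid at high dose injures the renal tubule, and bleomycin is a drug that cuts DNA. Several of the genes also respond to stress without p53: *Cdkn1a* to TGF-beta signaling, and *Sesn2* and *Gdf15* to the integrated stress response through the transcription factor ATF4.

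Between 25913969 and 38924788 reads were counted on genes per library. The edgeR TMM scaling factors were 0.844 to 0.858 in WTK, 1.14 to 1.18 in IgGK and 0.97 to 1.05 in LepK, and normalized CPM (the reads of a gene relative to the scaled total of its library) are given below with kidney and lung scaled apart. The organ labels were checked on marker genes. The summed level of 8 kidney tubule markers was 5445 to 17520 normalized CPM in the kidney libraries and 30.1 to 159 in the lung libraries, and that of 8 lung epithelium markers was 5.65 to 22.6 in kidney and 16520 to 47890 in lung.

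Sequences in front of the genes were searched for the 10-base p53 half-site, to show which members carry the factor's consensus letters at their start. RefSeq promoters (250 bases before to 50 after a start site, build GRCm38.p6, not the GRCm39 build of the count table) were matched by symbol for 8 of the 10 genes. *Trp53inp1* and *Zmat3* had no entry. A half-site on either strand, which for this palindromic consensus is the same match, was found in 4 of the 11 promoters of these 8 genes, each in a different gene, and in 8.36% of all 32851 promoters. The stretches that hold the matches are given here 5′ to 3′ on the strand of the gene, with the half-sites in capitals. They are chr17:29090846-29090978 (plus strand) for *Cdkn1a*, chr10:117710875-117711004 (minus strand) for *Mdm2*, chr11:40755402-40755531 (minus strand) for *Ccng1* and chr7:45467030-45467148 (minus strand) for *Bax*.

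Cdkn1a: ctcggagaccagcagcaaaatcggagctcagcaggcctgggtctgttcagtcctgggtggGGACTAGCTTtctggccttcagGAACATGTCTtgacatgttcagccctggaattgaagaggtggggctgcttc
Mdm2: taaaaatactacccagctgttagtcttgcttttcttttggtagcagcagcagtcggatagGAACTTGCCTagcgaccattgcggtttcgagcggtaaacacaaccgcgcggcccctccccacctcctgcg
Ccng1: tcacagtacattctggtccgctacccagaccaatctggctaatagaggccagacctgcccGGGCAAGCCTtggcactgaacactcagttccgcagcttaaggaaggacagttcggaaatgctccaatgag
Bax: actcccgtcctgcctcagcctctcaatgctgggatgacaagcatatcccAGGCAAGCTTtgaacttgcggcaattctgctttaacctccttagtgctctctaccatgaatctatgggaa

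*Cdkn1a* had 2 half-sites in front of its upstream start site, with first bases at positions -73 and -51, and no match at its downstream start site. The matches began at -186 in *Mdm2*, -185 in *Ccng1* and -201 in *Bax*. The windows of *Gdf15*, *Phlda3*, *Cdkn2a* and *Sesn2* held no match. The ATF4-type motif TGATGNAAN, searched on both strands, was in 0 of the 11 promoters of these genes and in 3.95% of all promoters. A match is a description of letters, and sites outside these windows were not searched.

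The first question was how folic acid injury changed these genes (IgGK against WTK). *Cdkn1a* and *Phlda3* rose several-fold, *Cdkn2a* rose from near absence, and *Sesn2* fell, while the feedback ligase *Mdm2* and the other 5 genes stayed within a log2 change of 0.5. In all, 3 of the 10 genes were called higher and 1 lower, where a call needs a log2 fold change above 0.5 or below -0.5 together with a p under 0.05 after Benjamini-Hochberg adjustment across every gene tested. Of the 19593 genes tested, 21.7% were called higher and 15.6% lower. The groups did not overlap for 7 of the 10 genes (4 higher and 3 lower in IgGK), against 62.6% of all genes tested. The median log2 fold change was 0.15 over the 10 genes and 0.04 over all genes. In bulk RNA, fewer cells of a type and less RNA per cell cannot be told apart.

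**Figure D1:**
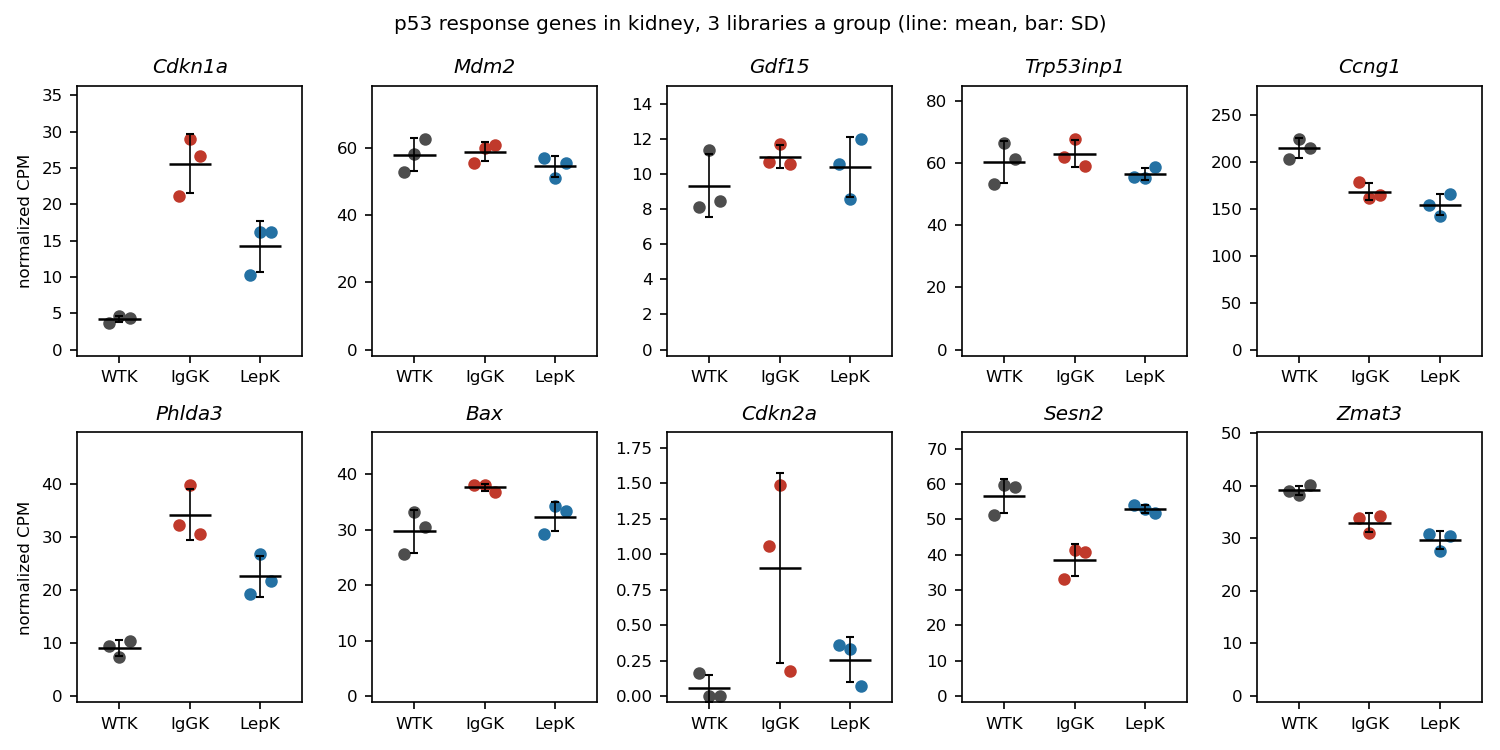
Normalized CPM of the 10 genes (y axes, each from 0) in WTK, IgGK and LepK kidneys. Points are libraries, lines are means and bars are SD (n = 3). *Cdkn1a* and *Phlda3* are highest in IgGK and lie between WTK and IgGK in LepK, *Sesn2* shows the opposite order, and the groups overlap for *Mdm2* and *Gdf15*.

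*Cdkn1a* (ENSMUSG00000023067, GRCm39 chr17:29309950-29319701, plus strand) stood at 3.7, 4.62 and 4.33 normalized CPM in the 3 WTK libraries. It stood at 21.2, 29.0 and 26.6 in IgGK. Every IgGK library was thus far above every WTK library. The log2 fold change was 2.60 ± 0.19 (SE, n = 3 per group), a 6.07-fold rise (edgeR quasi-likelihood test, adjusted p = 3.4e-07). An antisense gene of unclear status, 1700023B13Rik, overlaps *Cdkn1a*. The libraries keep no strand, so that reads of the pair cannot be told apart, but the antisense gene had 441 counts in all 15 libraries together against 82821 for *Cdkn1a*. Of the other members, *Sesn2* overlaps *Gm12981* (67 counts against 20522) and *Bax* overlaps *Gm45808* (0 counts).

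*Phlda3* (ENSMUSG00000041801, chr1:135693857-135696874, plus strand) encodes a p53-induced protein with a PH domain that restrains AKT signaling. Its level was 9.43, 7.34 and 10.4 normalized CPM in WTK and 32.4, 39.8 and 30.6 in IgGK, without overlap. The log2 fold change was 1.92 ± 0.16 (SE, edgeR adjusted p = 6.84e-07), a 3.78-fold rise.

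*Cdkn2a* (ENSMUSG00000044303, chr4:89192708-89212890, minus strand) encodes p16, an inhibitor of CDK4 and CDK6, and the separate protein p19Arf, which binds Mdm2. The gene counts do not separate the transcripts of these proteins. Only 4, 0 and 0 reads were counted in the WTK libraries, against 32, 52 and 6 in IgGK and 11, 10 and 2 in LepK. The gene was called higher in IgGK (edgeR log2 fold change 4.00 ± 1.13, adjusted p = 0.0093), a size that rests on the few WTK reads. As a ratio of normalized reads, 90 against 4 reads gave 17.3 with an exact 95% interval of 6.54 to 65.0, which covers counting error only. IgGK replicate 3, with 6 reads, was close to the WTK replicate with 4 reads. At these depths *Cdkn2a* was near the limit of what the kidney libraries can show. It passed the filter through the injured groups, where it is higher. With a filter at a mean of 1 CPM, or with only IgGK and WTK in the fit, it was not tested. Members called higher were then 2.

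*Sesn2* (ENSMUSG00000028893, chr4:132219343-132237812, minus strand) encodes a sestrin, a stress-induced inhibitor of mTORC1. It stood at 51.2, 59.7 and 59.2 normalized CPM in WTK and at 33.2, 41.4 and 40.8 in IgGK. All IgGK libraries were below all WTK libraries. The log2 fold change was -0.56 ± 0.09 (SE, edgeR adjusted p = 0.000192), just past the fold threshold. Without IgGK replicate 1, the lowest of the group, it was -0.47 and no longer called.

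The 6 genes that were not called differed little between IgGK and WTK. *Mdm2* (ENSMUSG00000020184, chr10:117524780-117546663, minus strand) stood at 52.9 to 62.8 normalized CPM in WTK and 55.6 to 61.0 in IgGK, a log2 difference of 0.02 ± 0.08. *Trp53inp1* (ENSMUSG00000028211, chr4:11156431-11174379, plus strand), a nuclear cofactor of p53, ranged from 53.3 to 66.5 and from 59.1 to 67.8. *Gdf15* (ENSMUSG00000038508, chr8:71082043-71085106, minus strand), a secreted stress cytokine of the TGF-beta family, ranged from 8.14 to 11.4 and from 10.6 to 11.7. For these 3 genes the groups overlapped.

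*Bax* (ENSMUSG00000003873, chr7:45111121-45116322, minus strand), which permeabilizes the outer mitochondrial membrane in apoptosis, was higher in every IgGK library (36.9 to 38.1 normalized CPM) than in WTK (25.6 to 33.2). Its log2 difference of 0.34 ± 0.10 passed the p threshold but not the fold threshold (edgeR adjusted p = 0.00971). *Ccng1* (ENSMUSG00000020326, chr11:40639379-40646138, minus strand), encoding cyclin G1, which recruits a phosphatase to Mdm2, was lower in every IgGK library (162 to 178) than in WTK (204 to 225). Its difference was -0.35 ± 0.07 (edgeR adjusted p = 0.00134). *Zmat3* (ENSMUSG00000027663, chr3:32388941-32420163, minus strand), an RNA-binding p53 target, stood at 38.3 to 40.1 in WTK and 31.0 to 34.2 in IgGK, a difference of -0.25 ± 0.07 (edgeR adjusted p = 0.0125). Genes placed together as p53 targets thus differed in both directions in the same libraries.

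These directions depend on the scaling. With library size alone as the scale, the median log2 fold change of all genes shifted to 0.48 and 86.9% of the calls were higher, against 58.2% with TMM. Under that scale 6 of the 10 genes were called higher and 0 lower, *Sesn2* was at -0.12 and *Ccng1* and *Zmat3* were at 0.09 and 0.19. Relative to the median of all genes, the change was the same on both scales: 2.56 for *Cdkn1a*, 1.88 for *Phlda3*, -0.60 for *Sesn2* and -0.39 for *Ccng1*.

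**Figure D2:**
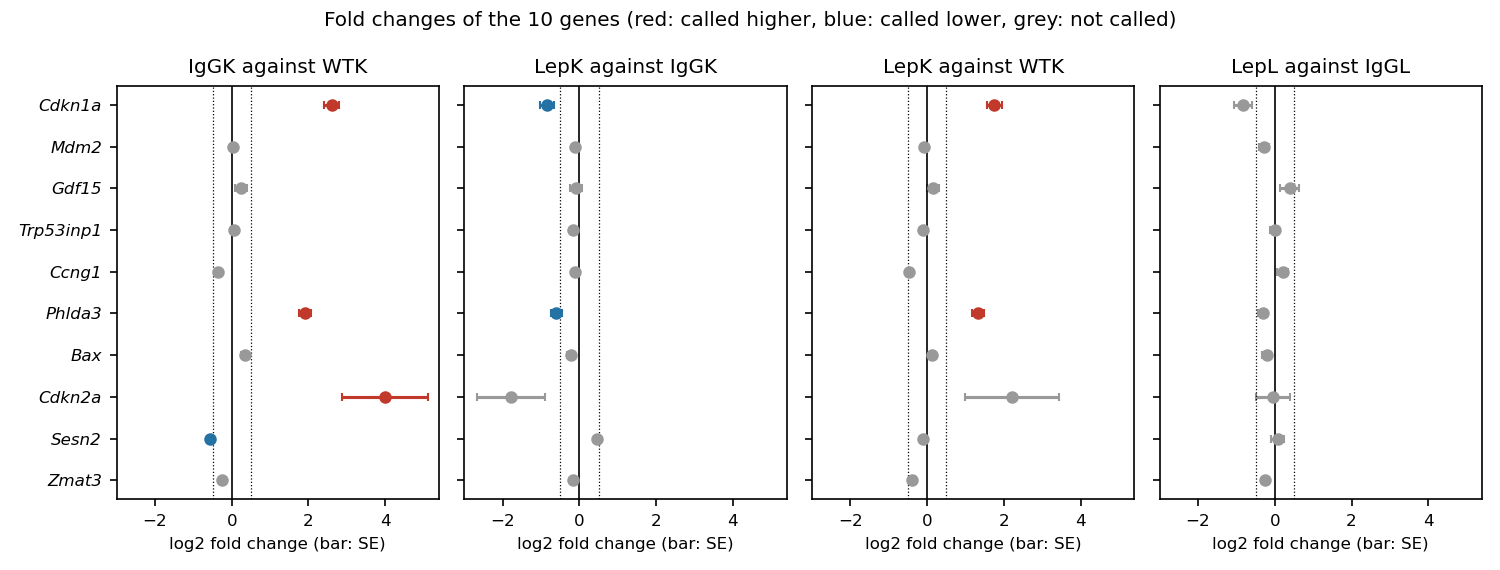
Log2 fold changes (x axis) of the 10 genes (y axis) in the 4 comparisons, with SE as bars. Dotted lines mark the fold threshold of 0.5. *Cdkn1a* and *Phlda3* are called higher in both comparisons with WTK and lower in LepK against IgGK, and no gene is called in LepL against IgGL.

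The second question was how LepAb changed these genes in injured kidney (LepK against IgGK). *Cdkn1a* and *Phlda3* were lower with LepAb than with control IgG, and *Sesn2* was higher by slightly less than the fold threshold. The remaining 7 genes did not pass the test. This comparison and the first share the IgGK libraries, so that a chance high or low value in IgGK enters both with opposite sign. Of all genes tested, 4.38% were called higher and 5.99% lower, against 0 and 2 of the 10 genes here. The groups did not overlap for 6 of the 10 (1 higher and 5 lower), against 37.4% of all genes. The median log2 fold change was -0.16 over the 10 genes and -0.01 over all genes.

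The LepK libraries held *Cdkn1a* at 10.2, 16.3 and 16.2 normalized CPM. All were below the IgGK libraries (21.2 to 29.0) and above the WTK libraries (3.7 to 4.62). The log2 fold change against IgGK was -0.85 ± 0.17, or 0.555-fold (edgeR adjusted p = 0.00506), and the call held without any single library. *Phlda3* stood at 19.3, 26.8 and 21.7 in LepK, with a log2 fold change of -0.60 ± 0.15 (edgeR adjusted p = 0.0125). Its call was lost without IgGK replicate 2 (-0.48, adjusted p = 0.0607) or without LepK replicate 1 (-0.49, adjusted p = 0.0529), both fitted with edgeR.

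*Sesn2* stood at 54.1, 53.001 and 51.8 normalized CPM in LepK, all above the IgGK libraries and within the range of WTK. Its log2 fold change of 0.46 ± 0.09 (edgeR adjusted p = 0.00396) was under the threshold of 0.5, and was called at 0.52 and 0.51 when IgGK replicate 2 or IgGK replicate 3 was left out. *Cdkn2a*, with 23 reads over the LepK libraries against 90 in IgGK, overlapped between the groups (log2 difference -1.78 ± 0.90, edgeR adjusted p = 0.191). *Bax* (29.3 to 34.2), *Zmat3* (27.6 to 30.7) and *Trp53inp1* (55.3 to 58.6) lay below IgGK in every LepK library but had log2 differences of -0.15 to -0.22 and edgeR adjusted p-values of 0.131 to 0.219. *Ccng1* (143 to 166), *Mdm2* (51.1 to 57.1) and *Gdf15* (8.58 to 11.999) overlapped with IgGK.

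Against vehicle kidney (LepK against WTK), *Cdkn1a* and *Phlda3* were still higher, by 1.75 ± 0.19 (edgeR adjusted p = 3.17e-05) and 1.32 ± 0.16 (edgeR adjusted p = 5.16e-05) on the log2 scale. No other member was called. Over all genes 15.2% were called higher and 7.3% lower, and 50.2% did not overlap between the groups, against 4 of the 10 genes here (2 higher and 2 lower). *Ccng1* and *Zmat3* were lower in every LepK library than in WTK, by -0.48 ± 0.07 (edgeR adjusted p = 0.000321) and -0.40 ± 0.07 (edgeR adjusted p = 0.00103), under the fold threshold. *Ccng1* was called lower without WTK replicate 1 (-0.51) or without LepK replicate 3 (-0.53), and *Cdkn2a* was called higher without WTK replicate 1, which held all WTK reads of that gene. *Sesn2* differed from WTK by -0.10 ± 0.09, *Mdm2* by -0.09 ± 0.08 and *Gdf15* by 0.15 ± 0.16, none past the test.

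Markers of several cell types changed in the same libraries. Counts of called markers stand beside 21.7% of all genes called higher and 15.6% lower in IgGK against WTK. In LepK against IgGK these shares were 4.38% and 5.99%. The summed level of 8 macrophage markers was 183 to 211 normalized CPM in WTK, 1650 to 2101 in IgGK and 587 to 874 in LepK, with 8 of 8 called higher in IgGK against WTK and 7 of 8 lower in LepK against IgGK. For 8 fibroblast markers the sums were 185 to 246, 1418 to 1610 and 509 to 841, with 8 of 8 higher and then 7 of 8 lower. For 8 injured tubule markers they were 214 to 230, 923 to 965 and 518 to 662, with 7 of 8 higher and then 5 of 8 lower. Kidney tubule markers moved the other way: 5 of 8 were lower in IgGK against WTK and 6 of 8 higher in LepK against IgGK. Of 8 lymphocyte markers, 5 were higher in IgGK against WTK while in LepK against IgGK edgeR called 0 and DESeq2 called 1 (1 had an unadjusted p under 0.05). Over all genes in LepK against IgGK, 6441 of 19593 had such a p. Of 8 endothelial markers, 1 was higher and 2 were lower in IgGK against WTK. None of the macrophage, fibroblast or injured tubule markers was at 0 in a whole group. The part of these cell types in the *Cdkn1a*, *Phlda3* and *Sesn2* results was not tested.

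Over the 9 kidney libraries, the 5 genes whose log2 normalized CPM was most like that of *Cdkn1a*, among 15766 genes with a mean of at least 1 CPM, were *H2-Eb1* and *H2-Ab1* (chains of MHC class II), *Plpp5*, *Capg* and *Il18r1*, with Pearson r of 0.997 to 0.998. Among the members, r with *Cdkn1a* was 0.971 for *Phlda3*, which placed it at rank 866 of the genes compared, and 0.823 for *Bax*, at rank 3623, so that many other genes followed *Cdkn1a* more closely. It was 0.03 for *Mdm2*, -0.73 for *Sesn2* and -0.77 for *Ccng1*. These values are a description over 3 groups with 3 libraries each, in which the groups themselves differ.

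Genes upstream of and beside the members were counted from lists. Of 14 tested genes of the p53 core and damage kinases, 2 were called higher and 0 lower in IgGK against WTK (median log2 fold change 0.21). The largest was *Trp63*, encoding the p53 relative p63, at 1.36 ± 0.29 (1.78 to 4.59 normalized CPM in the means, edgeR adjusted p = 0.00148). *Trp53* itself, picked here for its role after its values were seen, rose by 0.40 ± 0.06, from a mean of 39.1 to 51.8, past the p threshold but under the fold threshold (edgeR adjusted p = 0.000176). With LepAb, 2 of the 14 were lower and 0 higher, led by *Atm*, the kinase that senses double-strand breaks, at -0.62 ± 0.13 (edgeR adjusted p = 0.00598). Over all genes in LepK against IgGK, 4.38% were called higher and 5.99% lower.

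The counts of other p53 targets in IgGK against WTK stand beside 21.7% of all genes called higher and 15.6% lower, as do those of the other lists in this comparison. Of 10 tested growth arrest targets, 6 were higher and 0 lower (median 1.27), led by *Sfn*, encoding 14-3-3 sigma, at 2.18 ± 0.13 (edgeR adjusted p = 9.21e-08). Of 12 apoptosis targets, 7 were higher and 0 lower (median 1.07), led by *Bbc3*, encoding PUMA, at 1.79 ± 0.20 (edgeR adjusted p = 8.13e-06). The 16 targets of metabolism and repair split, with 6 higher and 3 lower (median 0.37). *Eda2r*, a receptor gene, rose by 2.12 ± 0.49 (edgeR adjusted p = 0.00287), and *Dcxr*, an enzyme gene of xylulose metabolism, fell by 1.21 on the log2 scale, from 257 to 111 normalized CPM (edgeR adjusted p = 6.77e-08). Over the p53, ATF4, senescence-linked and DNA repair lists together, 38 genes were called higher and 7 lower, against 59 and 3 with library size as the scale. In LepK against IgGK the same lists gave 2 higher and 12 lower, against 1 and 21 on that scale. The calls over all genes moved as well. In IgGK against WTK they went from 4253 higher and 3057 lower to 7803 and 1178. In LepK against IgGK they went from 858 and 1174 to 408 and 2185.

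With LepAb (LepK against IgGK), 2 of 10 growth arrest targets, 3 of 12 apoptosis targets and 2 of 16 metabolism and repair targets were called lower, and 0, 0 and 1 were higher. *Psrc1*, a spindle protein gene, was lowest among the first at -1.02 ± 0.28 (edgeR adjusted p = 0.0228), and *Casp1*, the inflammasome caspase gene, among the second at -1.31 ± 0.26 (edgeR adjusted p = 0.00435). *Eda2r* was lower by -1.46 ± 0.47 (edgeR adjusted p = 0.046) and *Dcxr* was higher by 0.72 ± 0.07 (edgeR adjusted p = 0.000108). Of the 9 fits that leave out 1 library, 3 kept the call of *Eda2r*, which was lost without WTK replicate 3, any 1 IgGK library, LepK replicate 1 or LepK replicate 3 (adjusted p up to 0.16 in edgeR). The call of *Psrc1* was kept in 5 and lost without IgGK replicate 2 or 3 or LepK replicate 1 or 3. Over all genes 4.38% were called higher and 5.99% lower. *Casp1* is also expressed by macrophages, whose markers were also lower, and the part of these cells in its change was not tested.

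**Figure D3:**
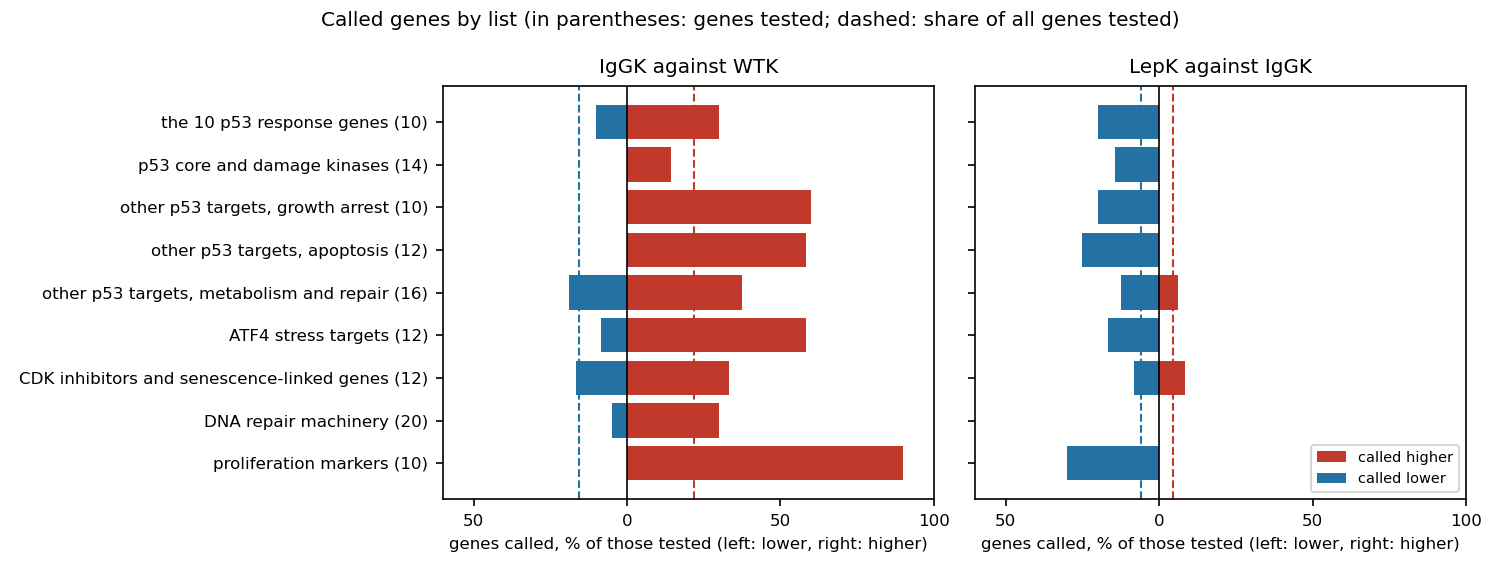
Share of tested genes of each list that was called higher (right, red) or lower (left, blue), with one panel for IgGK against WTK and another for LepK against IgGK. Dashed lines are the shares over all genes tested, and the numbers in parentheses are genes tested.

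Of 12 ATF4 stress targets, 7 were higher and 1 was lower in IgGK against WTK (median 0.96), while *Sesn2*, which ATF4 also induces, fell. *Slc7a11*, the cystine transporter gene, had 6 reads over the WTK libraries and 274 over IgGK, a ratio of normalized reads of 35.2 with an exact 95% interval of 15.9 to 96.7 for counting error (edgeR log2 fold change 5.04 ± 0.67, adjusted p = 3.88e-05). With 5, 0 and 1 reads in the WTK libraries, this gene passed the filter only through the injured groups, where it is higher. The size of its change rests on the few WTK reads. *Vldlr*, a lipoprotein receptor gene, was lower by -0.82 ± 0.08 (edgeR adjusted p = 2.9e-06). In LepK against IgGK, 2 of the 12 were lower and 0 higher, with *Slc7a11* at -2.24 ± 0.52 (edgeR adjusted p = 0.0096). The shares over all genes in this comparison were 5.99% lower and 4.38% higher.

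Of 12 other CDK inhibitors and senescence-linked genes, 4 were higher and 2 lower in IgGK against WTK. *Igfbp3*, encoding a binding protein of insulin-like growth factors, fell from 200 to 48.6 normalized CPM (-2.04 ± 0.17, edgeR adjusted p = 8.11e-07). In LepK against IgGK the difference of *Igfbp3* was 0.61 ± 0.17 (edgeR adjusted p = 0.0213), and 1 of the 12 genes was higher and 1 lower. This call was kept in 6 of the 9 fits that leave out 1 library and lost without IgGK replicate 2, IgGK replicate 3 or LepK replicate 1, the last with a difference of 0.32. Among all genes in LepK against IgGK, 4.38% were called higher and 5.99% lower.

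Of 20 DNA repair genes, 6 were higher and 1 was lower in IgGK against WTK. *Rad51b*, a gene of homologous recombination, rose by 2.48 ± 0.59 (edgeR adjusted p = 0.00347). It had 34 reads in WTK, 26 of them in replicate 3, and 244 in IgGK. *Xrcc5*, encoding Ku80, was lower by -0.67 ± 0.09 (edgeR adjusted p = 2.77e-05). In LepK against IgGK, 0 DNA repair genes were called by edgeR and 0 by DESeq2, and 2 had an unadjusted p under 0.05. So had 6441 of the 19593 genes tested. Among those 19593 genes, 4.38% were called higher and 5.99% lower in LepK against IgGK. Of 10 proliferation markers, 9 were higher in IgGK against WTK, led by the mitotic kinase gene *Bub1* at 2.27 ± 0.67 (edgeR adjusted p = 0.0119). *Bub1* had 0, 16 and 11 reads in the WTK libraries, so that the size of its change rests on few reads. With LepAb, 3 of the 10 markers were lower, led by *Aurkb*, another mitotic kinase gene, at -1.17 ± 0.29 (edgeR adjusted p = 0.0126). The inhibitor gene *Cdkn1a* and these markers of dividing cells were thus higher in the same libraries.

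In LepK against WTK, list genes with the largest or smallest called change included *Trp63* (1.09) and the p53 kinase gene *Hipk2* (-0.77), *Sfn* (1.66) and *Plk3* (-0.59), *Bbc3* (1.25), *Ptpn14* (0.77), *Slc7a11* (2.80), *Igfbp3* (-1.43), *Brca1* (1.35) and *Mki67* (1.37), all log2 fold changes called by edgeR. *Slc7a11* had 6 reads over WTK and 50 over LepK, and passed the filter only through the injured groups. Beside the 15.2% of all genes called higher and 7.3% called lower in this comparison, the lists gave 1 higher and 2 lower of 14 core genes, 3 and 1 of 10 growth arrest targets, 6 and 0 of 12 apoptosis targets and 3 and 0 of 16 metabolism and repair targets. The other lists gave 6 and 0 of 12 ATF4 targets, 3 and 2 of 12 senescence-linked genes, 3 and 0 of 20 repair genes and 6 and 0 of 10 proliferation markers. The call of *Plk3* held in 5 of the 9 fits that leave out 1 library and was lost without WTK replicate 1 or 3 or LepK replicate 1 or 2, and that of *Brca1* held in 8 and was lost without LepK replicate 3.

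The third question was how LepAb changed the 10 genes in bleomycin-treated lung (LepL against IgGL). Of the 10, edgeR called 0 and DESeq2 called 1, and 3 had an unadjusted edgeR p under 0.05. Of all 19617 genes tested, 5357 had such a p. Over all genes, 1.78% were called higher and 2.36% lower. The groups did not overlap for 4 of the 10 genes, all lower in LepL, against 33.3% of all genes. The median log2 fold change was -0.13 over the 10 genes and 0.00 over all genes.

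*Cdkn1a* reached 357, 479 and 659 normalized CPM in IgGL and 346, 268 and 226 in LepL. The groups did not overlap, with LepL replicate 1 just under the lowest IgGL library. The log2 difference was -0.83 ± 0.23 (edgeR adjusted p = 0.0694). The same size was called by DESeq2 (adjusted p = 0.00215) and in an edgeR fit of lung together with injured kidney (adjusted p = 0.0286), and it was called by edgeR at -1.02 without IgGL replicate 1 (adjusted p = 0.00811), whereas without IgGL replicate 3 it was -0.58 (adjusted p = 0.137). Over all alternatives its adjusted p ran from 8.17e-06, without a filter on low counts, to 0.255, without LepL replicate 3, and it was lower in LepL in each.

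*Phlda3* stood at 163, 168 and 192 normalized CPM in IgGL and 155, 134 and 130 in LepL, a log2 difference of -0.32 ± 0.11 (edgeR adjusted p = 0.118). *Zmat3* (68.1 to 74.0 in IgGL and 57.0 to 63.2 in LepL) and *Mdm2* (119 to 151 and 97.1 to 115) also did not overlap, with differences of -0.25 ± 0.09 (edgeR adjusted p = 0.126) and -0.28 ± 0.12 (edgeR adjusted p = 0.186). The other 6 genes overlapped. *Sesn2* stood at 31.4 to 41.0 in IgGL and 30.0 to 45.7 in LepL, a difference of 0.07 ± 0.17. *Cdkn2a* had 104, 55 and 30 reads in IgGL and 73, 46 and 61 in LepL, more than in kidney but with a difference of -0.05 ± 0.44. *Bax* differed by -0.20 ± 0.12, *Trp53inp1* by -0.00 ± 0.13, *Ccng1* by 0.21 ± 0.14 and *Gdf15* by 0.39 ± 0.24. LepL replicate 1 was the highest of its group for all 10 genes, and LepL replicate 3 was the lowest for 8.

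**Figure D4:**
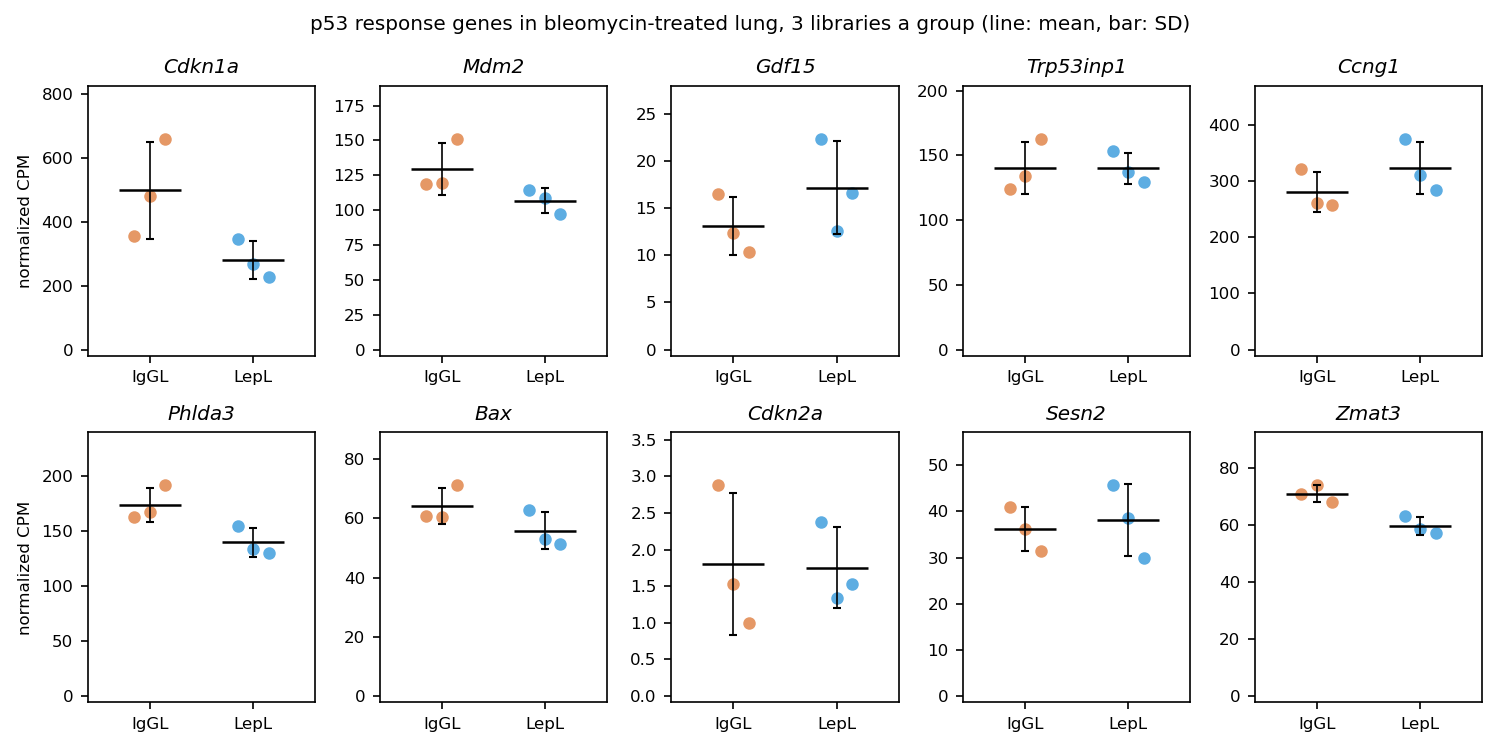
Normalized CPM of the 10 genes (y axes) in IgGL and LepL lungs. Points are libraries, lines are means and bars are SD (n = 3). *Cdkn1a*, *Phlda3*, *Zmat3* and *Mdm2* are lower in LepL without overlap, and none of the 10 genes was called by edgeR.

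Among the lists, 1 of 11 growth arrest targets was called lower in lung (*Plk3*, -0.98 ± 0.22, edgeR adjusted p = 0.0479), as was *Ddit4*, an inhibitor of mTORC1, at -1.75 ± 0.32 (edgeR adjusted p = 0.035), and *Dcxr* was higher by 0.68 ± 0.15 (edgeR adjusted p = 0.0441). Of the 6 fits that leave out 1 library, only that without IgGL replicate 1 kept these 3 calls. For the p53 core, the apoptosis targets, the ATF4 targets, DNA repair and proliferation, edgeR called 0 genes each, with 6, 3, 4, 2 and 1 at an unadjusted p under 0.05 and 0, 2, 1, 0 and 0 called by DESeq2. Of all 19617 genes tested in lung, 5357 had an unadjusted edgeR p under 0.05. By edgeR, 1.78% of all these genes were called higher and 2.36% lower. Fibroblast markers summed to 7450 to 8570 normalized CPM in IgGL and 3349 to 4610 in LepL (5 of 8 lower), and lung epithelium markers to 16520 to 22470 and 30690 to 47890 (3 of 8 higher). Macrophage markers summed to 3759 to 6650 and 7988 to 8241, yet edgeR called 2 of 8 lower and 0 higher. Their median log2 fold change was -0.67 (from -1.59 to 0.98), and DESeq2 called 6 lower and 1 higher. The macrophage sum thus does not give the direction of most of these markers. The part of these cell types in the lung values was not tested.

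The difference between the LepAb effect in kidney and in lung was fitted over the 12 libraries of injured organs. Of the members, 0 were called by edgeR or by DESeq2, against 3.51% of the 21488 genes tested that were called higher and 3.62% lower (a call here is an adjusted p under 0.05, with no fold threshold). An unadjusted edgeR p under 0.05 was found for 0 members and for 5468 of the 21488 genes. For *Cdkn1a* the difference was 0.01 ± 0.33 (edgeR adjusted p = 1), from -0.85 in kidney and -0.83 in lung. For *Phlda3* it was -0.25 ± 0.18 and for *Sesn2* 0.42 ± 0.20, neither past the test (edgeR adjusted p = 0.416 and 0.217). That *Cdkn1a* and *Phlda3* were called in kidney and not in lung does not show a difference between the organs.

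Levels were compared between genes and organs on the deposited FPKM (fragments divided by gene length and by a divisor of each library), without a test. That divisor is not the summed gene counts and differs between groups. *Ccng1* was the highest of the 10 genes in WTK (50.6 ± 2.58, SD, n = 3), IgGK (38.6 ± 2.11) and LepK (36.1 ± 2.64). *Bax* followed in each kidney group, at 15.6, 19.3 and 16.8, and did not differ beyond the spread from *Sesn2* in WTK and *Phlda3* in IgGK. *Cdkn1a* was 9th in WTK at 0.981 ± 0.112, 7th in IgGK at 5.81 ± 0.902, where it overlapped with *Gdf15*, and 8th in LepK at 3.28 ± 0.797. *Phlda3* moved from 6th in WTK (4.80) to 3rd in IgGK (17.7) and 4th in LepK (11.9). *Cdkn2a* was last in all 5 groups, from 0.04 in WTK to 1.06 in IgGL.

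In lung the order was different. *Cdkn1a* was first in IgGL at 95.7 ± 27.8 FPKM, overlapping with *Phlda3* at 76.4 ± 5.72 and above *Ccng1* at 54.7 ± 7.85. In LepL *Ccng1* (64.6), *Phlda3* (62.8) and *Cdkn1a* (55.2) overlapped as neighbours. *Bax* came next in both lung groups, at 27.9 and 24.8. The mean in IgGL was 16.5 times that in IgGK for *Cdkn1a* and 4.31 times for *Phlda3*, and 1.41 to 1.89 times for *Mdm2*, *Trp53inp1*, *Ccng1*, *Bax* and *Zmat3*. For these 7 genes every IgGL library was above every IgGK library, against 36.2% of 14769 genes with a mean of at least 1 FPKM in either group. *Gdf15* (1.01 times), *Cdkn2a* (1.7 times) and *Sesn2* (0.801 times) overlapped between the organs. Organ, injuring agent, day of euthanasia and length of antibody treatment all differ between these groups and cannot be told apart.

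**Figure D5:**
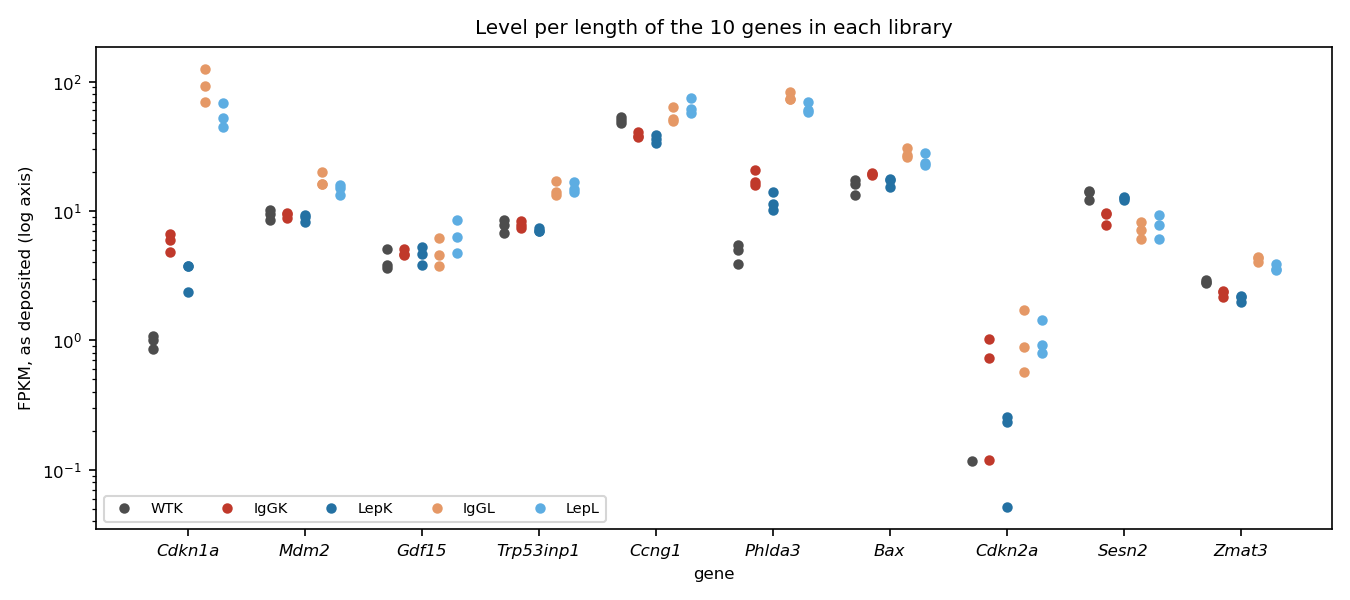
Deposited FPKM (y axis, log scale) of the 10 genes (x axis) in each library, coloured by group. *Cdkn1a* spans the widest range, from 0.858 in WTK to 125 in IgGL. The 2 WTK libraries with *Cdkn2a* at 0 are not drawn.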

How the data were processed

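RNA from kidney and lung was sequenced by the study after poly(A) selection, without keeping the strand. The deposited table holds whole-number read counts per gene, not normalized, and FPKM values that the authors' provider made from them. The FPKM divisor is larger than the summed gene counts, by 1.02 to 1.03 times in WTK, 1.4 to 1.46 in IgGK, 1.18 to 1.28 in LepK and 1.43 to 1.46 in lung. How it was made is not given in the sources used here. The submitters' processing notes name GRCm39, mm39 and DESeq2. The aligner and counter are not given in the sources used here. Columns of the authors' own fold changes, p-values and group means were not used.

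Libraries were grouped by title, tissue and treatment. The column of LepL replicate 3 carries a suffix the others lack, and a line of the descriptions that contradicts the other labels was not used. Counts of replicate pairs differed by far more than sampling noise (chi-square of 7.15 to 98.6 per gene). Counts were filtered with filterByExpr (minimum count 10, minimum total 15), scaled by TMM and tested with edgeR 4.0.16 (R 4.3.3) by quasi-likelihood in 1 fit of the 9 kidney libraries, 1 of the 6 lung libraries and 1 of the 12 libraries of injured organs. A call needed an absolute log2 fold change over 0.5, the study's threshold, and an adjusted p under 0.05. Standard errors were obtained by dividing the log2 fold change by the root of its F statistic. Log2 values for likeness used a prior count of 2. DESeq2 1.42.0 was an alternative. The procedure was tested on simulated data. Intervals and floors cover counting error only.

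The members, lists and alternatives were chosen with earlier results of these data known. The lists cover p53 core genes, 3 sets of other p53 targets, ATF4 targets, CDK inhibitors and senescence-linked genes, DNA repair, proliferation and 7 sets of cell markers. Named list genes are, per comparison, the called genes with the largest and the smallest log2 fold change among those with a mean of at least 1 CPM. A gene that this rule picks is not reported here.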

Additional observations from a re-analysis of the deposited data

Results flagged for a closer look

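The LepAb effect was called different between kidney and lung, by the test of the difference itself in edgeR, for 4 genes of the wider lists that the naming rule picks. Over the p53, ATF4, senescence-linked and DNA repair lists together, 6 genes were called lower and 0 higher. These were 1 of 15 core genes and 2 of 16 metabolism and repair targets. The others were 2 of 12 ATF4 targets and 1 of 20 DNA repair genes. Of 11 growth arrest targets, 12 apoptosis targets and 12 senescence-linked genes, 0 were called. Of all 21488 genes tested, 3.51% were called higher and 3.62% lower. For *Atm* the kidney minus lung difference was -1.10 ± 0.20 on the log2 scale (adjusted p = 0.0144), from means of 10.7 and 6.98 normalized CPM in IgGK and LepK and 10.2 and 14.6 in IgGL and LepL, and it was called in all 20 alternatives. For *Ephx1*, an epoxide hydrolase gene, it was -1.10 ± 0.30 (adjusted p = 0.0454), for *Rad51b* -1.68 ± 0.46 (adjusted p = 0.0456) and for *Slc7a11* -1.72 ± 0.44 (adjusted p = 0.0368), each called in 9 of 20 alternatives. Of the 12 fits that leave out 1 library, the call was kept in 1 for *Ephx1*, 1 for *Rad51b* and 2 for *Slc7a11*, against 12 for *Atm*. The IgGK and LepK, and the IgGL and LepL, libraries that give these differences are the ones used in the comparisons within each organ. No such difference was found for the 10 p53 response genes.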

How the results depend on the processing

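Of 925 values of the 10 genes under the alternatives, 900 kept their side of the thresholds, 7 lost a call, 18 gained one and 0 turned a called direction. Another 45 crossed 0 without being called, and are among the 900. *Cdkn1a* and *Phlda3* were called higher in IgGK and in LepK against WTK in every alternative run. Depth limits *Cdkn2a* most, with 4 reads over the WTK libraries.

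With library size as the scale, 6 members were higher and 0 lower in IgGK against WTK (all genes 7803 and 1178), and all genes gave 408 and 2185 in LepK against IgGK, 4782 and 512 in LepK against WTK and 249 and 1968 for the kidney minus lung difference. The share of higher calls went from 42.2% to 15.7%, from 67.6% to 90.3% and from 49.2% to 11.2% in these 3. DESeq2 called 1 member lower in LepL against IgGL (all genes 1204 higher and 1090 lower) and 1331 and 1441 genes for the organ difference. Without a filter on low counts, 1 member was lower in lung (all genes 1515 and 1173), and 1563 genes were lower for the organ difference. With lung fitted beside injured kidney, 1 member was lower (all genes 1069 and 998). For these changes in counts the cause was not tested.

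Without a fold threshold, 3 members were lower in IgGK against WTK (all genes 5040 lower), 1 was higher in LepK against IgGK (all genes 2150 and 1875) and 2 were lower in LepK against WTK (all genes 3650 lower). With a log2 threshold of 1, 0 members were lower in IgGK against WTK (all genes 1236 lower) and 0 in LepK against IgGK (all genes 175 and 428), and all genes gave 1839 and 302 in LepK against WTK, 192 and 229 in LepL against IgGL and 211 and 473 for the organ difference. These follow from the threshold itself.

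Leaving out 1 library at a time, members called lower ranged from 0 to 1 in IgGK against WTK, 1 to 2 in LepK against IgGK, 0 to 1 in LepK against WTK and 0 to 1 in LepL against IgGL, and members called higher from 0 to 1 in LepK against IgGK and 2 to 3 in LepK against WTK. Over all genes, higher calls ranged from 594 to 992 and lower from 695 to 1271 in LepK against IgGK, from 0 to 1937 and 0 to 1602 in LepL against IgGL and from 141 to 1853 and 195 to 1910 for the organ difference. In lung, 1937 and 1602 were called without IgGL replicate 1, and 0 when LepL replicate 2, LepL replicate 3 or IgGL replicate 2 was dropped. Without IgGL replicate 3 the counts were 3 and 1, and without LepL replicate 1 they were 18 and 4.

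Correlations of same-numbered deviations from the group means were -0.0553 to 0.182, with a negative value in every comparison. The highest were 0.182 and 0.165, for replicates 1 and 2 in LepK against IgGK. With 3 libraries per group these values cannot show whether same-numbered libraries shared a batch. With the replicate block, all genes gave 1 higher and 3 lower in LepL against IgGL, and the block changed no call of the 10 genes.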
